A study of Oryza sativa with 32 samples.

Results

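The genes described here carry nitrate reduction and ammonium assimilation in rice: 2 nitrate reductases (NIA1, NIA2), a nitrite reductase (NIR1), 3 glutamine synthetases (GS1;1, GS1;2, GS2) and 3 glutamate synthases (NADH-GOGAT1, NADH-GOGAT2, FdGOGAT). They were chosen by identifier as genes of this pathway and are 9 of the 37829 genes in the count table. Plants turn nitrate into nitrite in the cytosol and nitrite into ammonium in plastids, and glutamine synthetase then joins ammonium to glutamate. Glutamate synthase (GOGAT) uses the glutamine to regenerate glutamate, with electrons from NADH or, in the chloroplast, from ferredoxin. In leaves GS2 and FdGOGAT, both plastid enzymes, are best known for recapturing ammonium released in photorespiration. GS1, which is cytosolic, and NADH-GOGAT are best known for nitrogen transport and reuse.

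RNA was sequenced from panicles, the flowering heads, of untreated field-grown Oryza sativa IR64 in the Philippines at 50% flowering. By their labels the 8 groups share variety, field and stage and differ in sampling time alone. The times were dawn, 3.5, 7 and 10.5 h after dawn, dusk, and 14, 17.5 and 21 h after dawn, with 4 libraries each (32 in all). Dusk has no hour in the labels, no next dawn was sampled, and the submitters' text speaks of shorter steps than these hours. Nothing says that the libraries of a time come from separate plants, so the p-values rest on sample-to-sample spread that could be technical.

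Libraries held 10.8 to 43.9 M counts, with a median of 16.8 M. Levels are CPM after TMM scaling, and a count of 3, taken as the floor, is worth 0.0676 to 0.304 CPM depending on the library. CPM is not divided by transcript length, so levels are compared within a gene and not between genes. All 11 floral organ genes used to check the tissue were tested, with summed levels of 2352 to 3952 CPM per library, MADS1 alone giving 549 to 1096 CPM. The 3 libraries that correlated least with others of their time were dawn replicate 4, 10.5 h replicate 3 and dusk replicate 3. In whole panicles, fewer cells of a type and less RNA per cell cannot be told apart.

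All 9 genes passed the filter on low counts, and 8 differed over the 8 times (edgeR quasi-likelihood test, Benjamini-Hochberg adjusted p under 0.05 over 25766 genes tested), where 42.1% of all genes tested did. GS1;2 was the exception. The median range between highest and lowest time mean was 1.25 on the log2 scale for the 9 genes and 0.93 for all genes tested. A single 24 h wave passed for 9 of 9, against 47.4% of all genes, with a median amplitude (peak against mean) of 0.51 against 0.29 log2. With limma on the deposited CPM 7 of the 9 waves passed: GS1;1 (adjusted p = 0.0749) and GS1;2 (0.0896) missed the threshold there. The wave calls of GS1;2 and NIA2 were lost in further alternatives, given with their values.

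**Figure D1:**
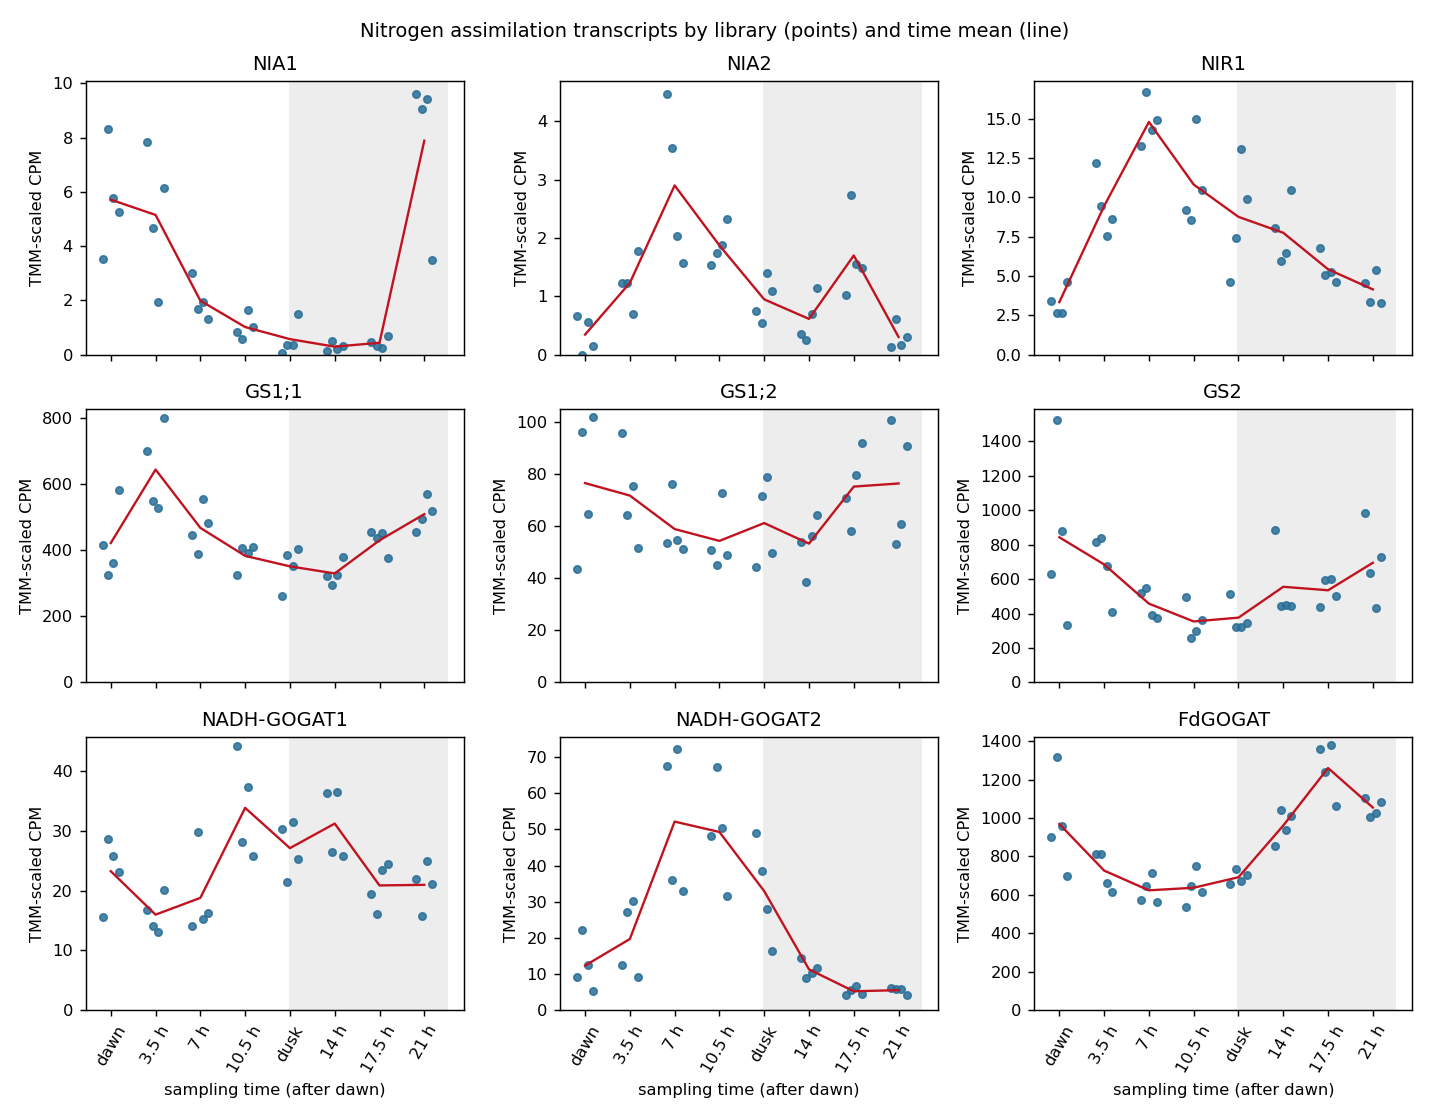
TMM-scaled CPM of each gene (y axis, linear from 0, own scale per gene) at the 8 sampling times (x axis); points are the 4 libraries of a time, the line joins time means and grey marks dusk onward. NIA1 is high from 21 h to 3.5 h, NADH-GOGAT2 from 7 h to dusk, and FdGOGAT from 14 h to dawn.

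NIA1 (OS08G0468100, chromosome 8), a nitrate reductase, was a late-night and early-morning transcript. The 4 libraries had 3.52, 8.31, 5.78 and 5.24 at dawn and 7.85, 4.67, 1.92 and 6.16 at 3.5 h, then 3.02, 1.68, 1.94 and 1.31 at 7 h and 0.825, 0.584, 1.63 and 1.02 CPM at 10.5 h. They had 0.0625, 0.352, 0.351 and 1.51 at dusk, 0.117, 0.517, 0.203 and 0.326 at 14 h, 0.48, 0.331, 0.234 and 0.693 at 17.5 h, and 9.61, 9.04, 9.42 and 3.48 CPM at 21 h. No library from 7 h to 17.5 h reached the lowest of the 21 h libraries, while the ranges of 21 h, dawn and 3.5 h overlapped. The mean was 27.1 times higher at 21 h (7.89 ± 2.95 CPM, SD, n = 4) than at 14 h (0.291 ± 0.174 CPM, SD, n = 4, 23 counts in all 4 libraries), with an adjusted p over the 8 times of 8.43e-08 (edgeR). The rise came in a single step: from 17.5 to 21 h it was 4.11 ± 0.60 log2 (SE, edgeR adjusted p = 2.73e-05). From 21 h to dawn and to 3.5 h the means, 7.89, 5.71 and 5.15 CPM, lay within each other's spread, and the fitted wave peaked at 1.07 h after dawn with an amplitude of 2.11 log2.

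NIA2 (OS02G0770800, chromosome 2), the other nitrate reductase, had its highest mean near midday and its lowest at 21 h and dawn, where NIA1 had its highest means. At 3.5 h, where NIA1 was also high, the NIA2 mean was 1.23 CPM, above its means at dusk and 14 h. Its libraries had 4.47, 3.54, 2.03 and 1.57 CPM at 7 h and 1.53, 1.75, 1.88 and 2.33 CPM at 10.5 h. At 17.5 h they had 1.02, 2.73, 1.56 and 1.49 CPM, at 21 h 0.137, 0.603, 0.158 and 0.306 CPM, and at dawn 0.659, 0, 0.557 and 0.154 CPM. Every 7 h library lay above every 21 h and dawn library, and so did every 17.5 h library. The mean at 7 h (2.90 ± 1.34 CPM, SD, n = 4) was 9.64 times that at 21 h (0.301 ± 0.215 CPM, SD, n = 4, 16 counts in all), with an edgeR adjusted p over the times of 0.000282. Between 17.5 and 21 h, the step in which NIA1 rose, NIA2 fell by 2.48 on the log2 scale (SE 0.61, edgeR adjusted p = 0.00901). With means of 0.948 CPM at dusk, 0.612 CPM at 14 h, then 1.70 CPM at 17.5 h, NIA2 followed a single wave less closely than NIA1: the wave held 48.5% of the variance of its time means, against 86.0% for NIA1. The wave peaked at 9.12 h (edgeR adjusted p = 0.0215), and missed the threshold without 7 h replicate 1 (adjusted p = 0.0522).

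NIR1 (OS01G0357100, chromosome 1), the plastid enzyme that makes ammonium from nitrite, rose through the morning. Its libraries had 3.43, 2.64, 2.65 and 4.62 at dawn, 12.2, 9.43, 7.55 and 8.62 at 3.5 h, and 13.3, 16.7, 14.3 and 14.9 CPM at 7 h. They had 9.19, 8.57, 15.0 and 10.5 at 10.5 h, 4.63, 7.39, 13.1 and 9.92 at dusk, and 8.06, 5.94, 6.49 and 10.5 CPM at 14 h. The last 2 night samplings gave 6.78, 5.05, 5.23 and 4.64 CPM at 17.5 h and 4.53, 3.36, 5.39 and 3.30 CPM at 21 h. Dawn, 3.5 h and 7 h did not overlap with each other, whereas neighbouring times from 7 h to 21 h did, as did 21 h and dawn. NIR1 rose by 1.50 ± 0.27 log2 (SE) from dawn to 3.5 h (edgeR adjusted p = 0.000402), and the mean at 7 h (14.8 ± 1.42 CPM, SD, n = 4) was 4.44 times that at dawn (3.34 ± 0.935 CPM). The edgeR adjusted p over the 8 times was 1.47e-06, and the wave peaked at 8.48 h with an amplitude of 0.89 log2.

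**Figure D2:**
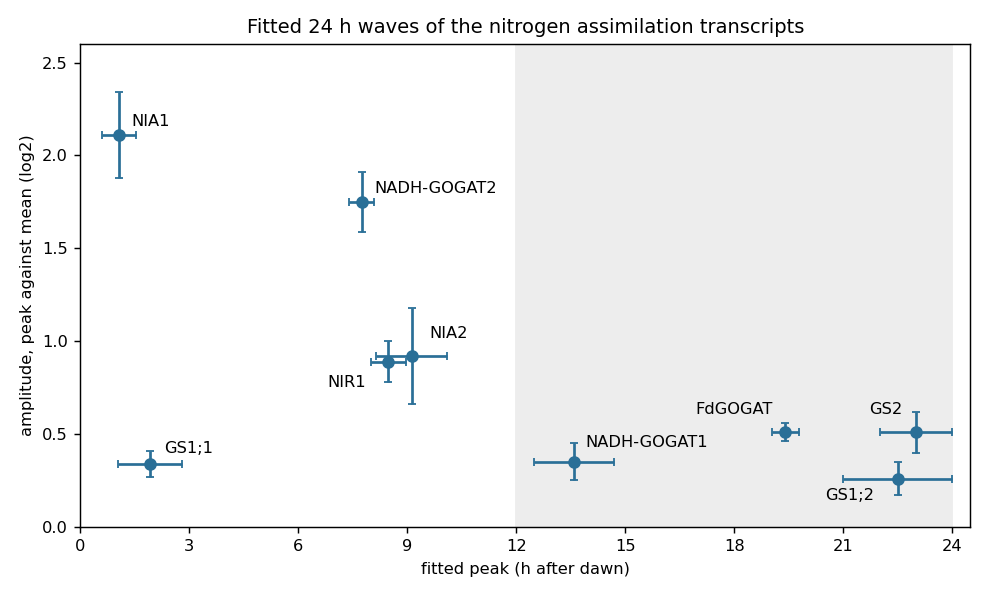
Fitted peak (x axis, h after dawn) and amplitude (y axis, log2, peak against mean) of the 24 h wave for each gene; points are the edgeR fit, bars are standard errors of a least-squares fit to log2 CPM, and grey marks 12 h onward, the hour set for dusk. NADH-GOGAT2, NIR1 and NIA2 peaked between 7.74 and 9.12 h, and FdGOGAT, GS1;2 and GS2 between 19.4 and 23.0 h.

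GS1;1 (OS02G0735200, chromosome 2), a cytosolic glutamine synthetase, was highest at 3.5 h. Its libraries had 417, 325, 362 and 584 at dawn, 702, 548, 527 and 801 at 3.5 h, and 447, 388, 555 and 482 CPM at 7 h. They then had 324, 408, 391 and 410 at 10.5 h, 261, 387, 354 and 404 at dusk, 321, 294, 326 and 379 at 14 h, 455, 437, 451 and 378 at 17.5 h, and 455, 496, 569 and 518 CPM at 21 h. The 3.5 h libraries all lay above those from 10.5 h to 17.5 h and overlapped with dawn, 7 h and 21 h. The means at 3.5 h and 14 h, 644 ± 130 and 330 ± 35.5 CPM (SD, n = 4 each), differed 1.95-fold, and the edgeR adjusted p over the times was 0.000469. That call was lost without TMM scaling (adjusted p = 0.104) and with limma on the deposited CPM (adjusted p = 0.106). The rise from dawn to 3.5 h was 0.61 ± 0.17 log2 (SE, edgeR adjusted p = 0.0173). It missed the threshold without TMM scaling (0.193), with limma on the deposited CPM (0.162), and without dawn replicate 2 (0.0714), dawn replicate 3 (0.0597) or 3.5 h replicate 4 (0.0657).

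GS1;2 (OS03G0223400, chromosome 3), the second cytosolic glutamine synthetase, did not pass the test over the 8 times (edgeR adjusted p = 0.303, unadjusted p = 0.213). Single libraries ran from 38.8 CPM at 14 h to 102 CPM at dawn, and every time overlapped with every neighbour in the order of means. The means ran from 53.4 ± 10.7 CPM at 14 h to 76.6 ± 27.3 CPM at dawn (SD, n = 4 each). The 24 h wave had an amplitude of 0.26 log2 and an edgeR adjusted p of 0.0343, which missed the threshold in 8 of 42 alternatives, with adjusted p up to 0.0896.

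GS2 (OS04G0659100, chromosome 4), the plastid glutamine synthetase, varied widely within a time, and most at dawn. Its libraries had 630, 1525, 882 and 335 at dawn, 817, 837, 677 and 410 at 3.5 h, 519, 548, 391 and 373 at 7 h, and 497, 259, 296 and 365 CPM at 10.5 h. They had 514, 320, 323 and 348 at dusk, 886, 442, 448 and 446 at 14 h, 440, 597, 601 and 503 at 17.5 h, and 985, 636, 432 and 727 CPM at 21 h. Dawn held both the highest library of all 32 and, in replicate 4, one of the lower values, so that its range overlapped with those of all other times. The mean was 843 ± 507 CPM at dawn and 354 ± 105 CPM at 10.5 h (SD, n = 4 each), a ratio of 2.38. The edgeR adjusted p over the times was 0.0263. It rose to 0.0547 with limma-trend, to 0.0528 without 10.5 h replicate 2 and to 0.0505 without 10.5 h replicate 3. The call held in 38 of 41 alternatives. A 24 h wave passed (amplitude 0.51 log2, peak at 23.0 h, edgeR adjusted p = 0.00130), and did so in all 42 alternatives.

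The library differences in GS2 at dawn moved with a list of 7 genes of green tissue. These genes (RCA, LHCB2, CAO1, CHLH and 3 Rubisco small subunit rows) summed to 12735, 32620, 18979 and 6767 CPM in dawn replicates 1 to 4, the same order as GS2. With each library centred on the mean of its time, GS2 and the mean log2 level of the list correlated over 32 libraries with r = 0.93 and rho = 0.87 (permuted within times, adjusted p = 0.00018 and 0.00036 over 18 relations, raw p for r = 1.0e-05, the smallest the permutations can give). Without the 2 libraries farthest on the list axis, r was 0.88. GS1;1 went the other way, with r = -0.74 and rho = -0.63 (permutation test, raw p = 0.00013 and 0.00086, adjusted p = 0.0012 and 0.0039), and r = -0.61 without those 2 libraries. The list also moved over the day: its summed level ran from 5377 to 10420 CPM at dusk and from 12354 to 25888 CPM at 3.5 h, and 4 of its 7 genes differed over the times while the 3 Rubisco rows did not pass (edgeR adjusted p from 0.239 to 0.322). The part of green tissue in the differences of GS2 between times was not tested. Here and in the other relations with marker lists, the permutations treat the 4 libraries of a time as exchangeable. They take no account of replicate number.

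**Figure D3:**
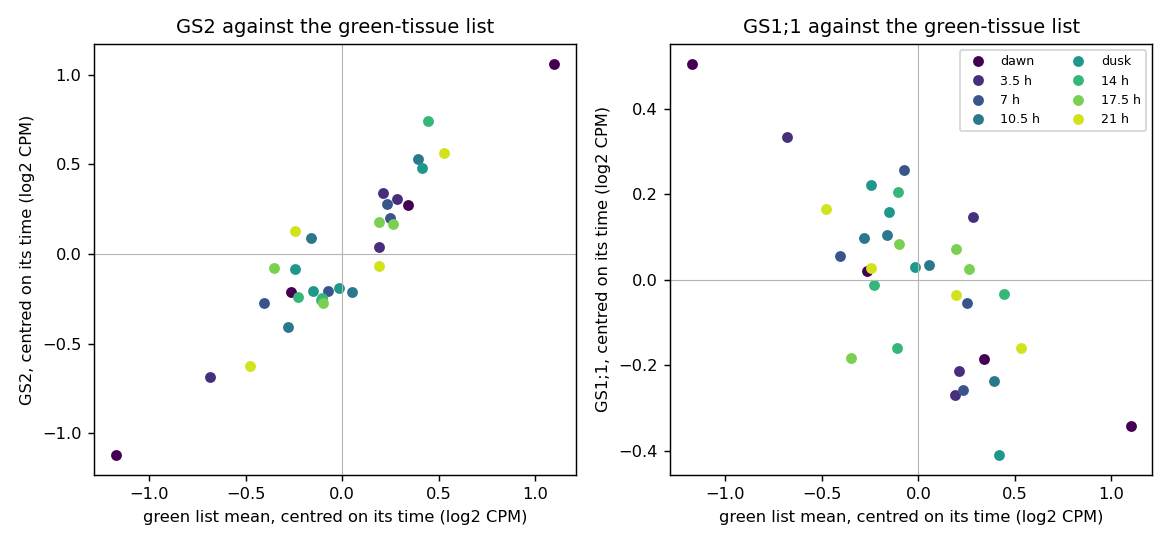
Level of GS2 (left) and GS1;1 (right) against the mean of 7 green-tissue genes, all as log2 CPM centred on the mean of the sampling time; each point is 1 of 32 libraries, coloured by time. GS2 goes up with the list (r = 0.93) and GS1;1 goes down (r = -0.74), with 2 dawn libraries at the ends of the axis.

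NADH-GOGAT1 (OS01G0681900, chromosome 1), an NADH-dependent glutamate synthase, had its highest means from 10.5 to 14 h. Its libraries had 15.5, 28.6, 25.7 and 23.1 at dawn, 16.8, 14.0, 13.0 and 20.1 at 3.5 h, 14.0, 29.7, 15.2 and 16.2 at 7 h, and 44.1, 28.1, 37.2 and 25.8 CPM at 10.5 h. They had 30.2, 21.4, 31.4 and 25.3 at dusk, 36.2, 26.4, 36.4 and 25.7 at 14 h, 19.4, 16.0, 23.5 and 24.5 at 17.5 h, and 22.0, 15.7, 25.0 and 21.1 CPM at 21 h. All 10.5 h libraries lay above all 3.5 h libraries, and 7 h overlapped with 10.5 h only through its replicate 2. The mean at 10.5 h, 33.8 ± 8.43 CPM, was 2.12 times the 16.0 ± 3.20 CPM at 3.5 h (SD, n = 4 each, edgeR adjusted p over the times = 0.00362). The rise from 7 to 10.5 h, 0.85 ± 0.23 log2 (SE, edgeR adjusted p = 0.0318), missed the threshold when libraries were left out: leaving out 7 h replicate 1, 3 or 4, or 10.5 h replicate 1 or 3, gave adjusted p from 0.0899 to 0.140, and the 3 least correlated libraries left out together gave 0.0899.

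NADH-GOGAT2 (OS05G0555600, chromosome 5), the second NADH-dependent glutamate synthase, had its highest means from 7 h to dusk and the lowest adjusted p of the 9 genes. Its libraries had 9.32, 22.1, 12.6 and 5.47 at dawn, 12.5, 27.1, 30.1 and 9.17 at 3.5 h, 67.5, 36.1, 72.2 and 32.9 at 7 h, and 48.1, 67.2, 50.3 and 31.6 CPM at 10.5 h. They had 48.9, 38.4, 28.0 and 16.5 at dusk, 14.4, 8.92, 10.2 and 11.8 at 14 h, 4.23, 5.63, 6.80 and 4.42 at 17.5 h, and 6.31, 5.85, 6.02 and 4.16 CPM at 21 h. Every library from 7 h to dusk was above every library from 14 h to 21 h, while the ranges of dawn and 3.5 h overlapped with that of 14 h. The mean at 7 h, 52.2 ± 20.6 CPM, was 9.90 times the 5.27 ± 1.19 CPM at 17.5 h (SD, n = 4 each, edgeR adjusted p over the times = 5.51e-08). The wave peaked at 7.74 h with an amplitude of 1.75 log2 and held 93.7% of the variance of the time means. The rise from 3.5 to 7 h was 1.40 ± 0.39 log2 (SE, edgeR adjusted p = 0.0219), and it missed the threshold without 3.5 h replicate 1 (0.0885) or 4 (0.0610) and without 7 h replicate 1 (0.0640) or 3 (0.0800). Within times, NADH-GOGAT2 also went with the green-tissue list (r = 0.67, rho = 0.55, permutation test, raw p = 0.00065 and 0.0056, adjusted p = 0.0023 and 0.016, r = 0.52 without the 2 farthest libraries). Replicate 4 was the lowest NADH-GOGAT2 library at dawn, 3.5, 7 and 10.5 h, dusk and 21 h. It also lay below the time mean of the list at every time. Whether an effect shared by replicate number carries this relation was not tested.

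FdGOGAT (OS07G0658400, chromosome 7), the ferredoxin-dependent glutamate synthase of chloroplasts, was higher in the dark. Its libraries had 902, 1316, 961 and 697 at dawn, 814, 812, 664 and 617 at 3.5 h, 572, 646, 715 and 563 at 7 h, and 536, 648, 752 and 614 CPM at 10.5 h. They had 657, 733, 674 and 705 at dusk, 853, 1044, 936 and 1011 at 14 h, 1358, 1241, 1380 and 1061 at 17.5 h, and 1103, 1006, 1027 and 1082 CPM at 21 h. All 12 night libraries were above all 12 libraries from 3.5 to 10.5 h, and above the 4 at dusk. The mean at 17.5 h, 1260 ± 146 CPM, was 2.02 times the 624 ± 71.1 CPM at 7 h (SD, n = 4 each, edgeR adjusted p over the times = 3.73e-06). The wave peaked at 19.4 h with an amplitude of 0.51 log2 and held 93.2% of the variance of the time means. Its relation with the green-tissue list within times (r = 0.55, rho = 0.27, permutation test, raw p = 0.047 and 0.20, adjusted p = 0.11 and 0.36) fell to r = 0.15 without the 2 farthest libraries, so it rests on those.

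Between dusk and dawn, the light transitions, the genes split in direction. At dusk 2 of 9 were higher, against 11.5% of all genes tested, and 3 of 9 lower, against 10.6%. NIR1 was 1.39 ± 0.27 log2 higher (8.76 against 3.34 CPM, edgeR adjusted p = 0.000261, no overlap between libraries). NADH-GOGAT2 was 1.42 ± 0.39 log2 higher (32.9 against 12.4 CPM, edgeR adjusted p = 0.00862), with overlapping ranges. NIA1 fell by 3.33 on the log2 scale (SE 0.58, 0.569 against 5.71 CPM, edgeR adjusted p = 8.95e-05, no overlap).

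The other 2 lower genes were the chloroplast pair, and both calls were less firm. GS2 fell by 1.16 on the log2 scale (SE 0.34, 376 against 843 CPM, edgeR adjusted p = 0.0134) and FdGOGAT fell by 0.49 (SE 0.15, 692 against 969 CPM, adjusted p = 0.0171), both with overlapping ranges. Without dawn replicate 2, the 2 genes missed the threshold (GS2 -0.76 log2, edgeR adjusted p = 0.104, and FdGOGAT -0.35 log2, adjusted p = 0.0654). Without dawn replicate 4, both differences were larger (GS2 -1.43 log2, edgeR adjusted p = 0.00122, and FdGOGAT -0.61 log2, adjusted p = 0.00161). Replicates 2 and 4 had the highest and lowest dawn sums of both the green-tissue and the pollen list. The part of either tissue in these calls was not tested. FdGOGAT missed the threshold also without TMM scaling (0.134) and with limma on the deposited CPM (0.154). Without TMM the median of all genes tested moves by 0.12 log2 in this contrast, from 0.04 to 0.16. The median log2 difference of the 9 genes was -0.27.

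Night (14, 17.5 and 21 h) against day (3.5, 7 and 10.5 h) gave 1 of 9 genes higher at night, against 12.3% of all genes tested, and 4 of 9 lower, against 14.0%. FdGOGAT was the higher one, by 0.71 ± 0.08 log2 (SE, 1092 against 663 CPM, edgeR adjusted p = 2.86e-07). NADH-GOGAT2 fell by 2.42 on the log2 scale (SE 0.23, 7.39 against 40.4 CPM, adjusted p = 7.72e-09), the largest difference of the 9. NIR1 fell by 1.04 (SE 0.15, 5.77 against 11.7 CPM, adjusted p = 6.02e-06) and NIA2 fell by 1.47 (SE 0.33, 0.871 against 2.00 CPM, adjusted p = 0.00126). The call for NIA1, -1.12 ± 0.33 log2 (SE, adjusted p = 0.0111), averages log2 levels over times that differ strongly. Its mean CPM was 2.87 at night and 2.72 by day, since the night holds both its lowest time, 14 h, and its highest, 21 h. That call missed the threshold with limma on the deposited CPM (-0.50, adjusted p = 0.103). The median difference was -0.23 log2 for the 9 genes and -0.02 for all genes tested.

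**Figure D4:**
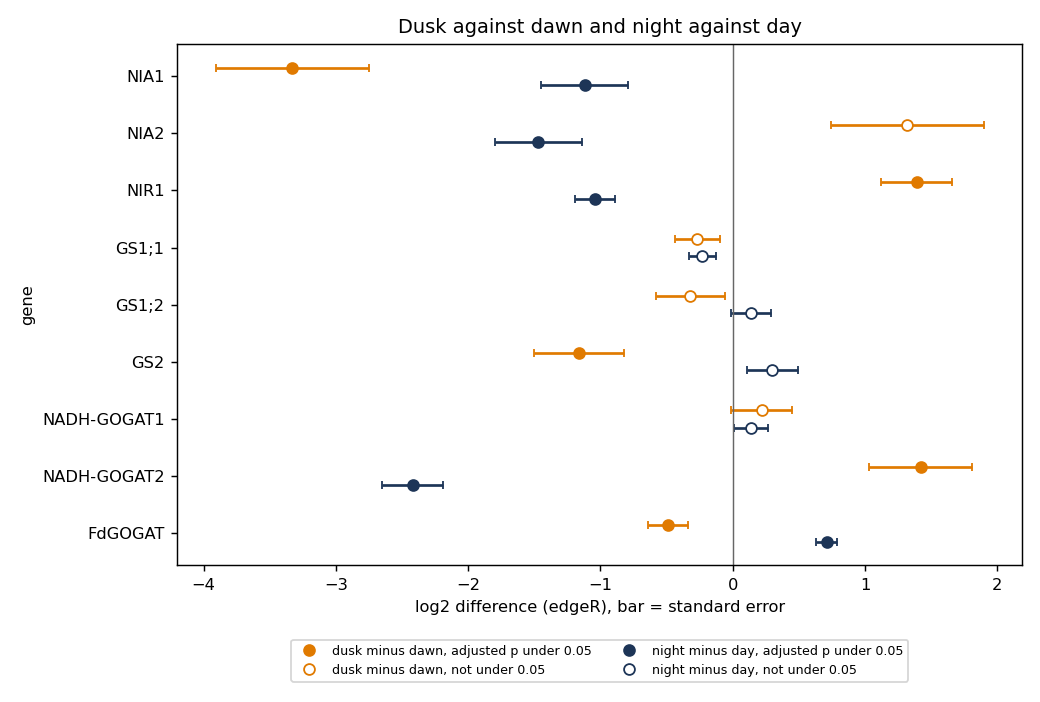
Log2 difference (x axis, edgeR) of each gene (y axis) for dusk minus dawn (orange) and night minus day (dark blue), with standard error bars; filled points have an adjusted p under 0.05. FdGOGAT is lower at dusk and higher at night, and NADH-GOGAT2 is the reverse.

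Taken step by step, 6 of the 72 differences between successive times passed. From dawn to 3.5 h 2 genes changed (NIR1 and GS1;1, both higher), against 11.5% of all genes tested. From 3.5 to 7 h and from 7 to 10.5 h 1 gene each rose (NADH-GOGAT2, then NADH-GOGAT1), against 8.62% and 4.15%. From 17.5 to 21 h 2 genes changed, NIA1 up and NIA2 down, against 8.57%. With the settings of the main edgeR test, no gene passed from 10.5 h to dusk (0.186% of all genes), from dusk to 14 h (0.625%), from 14 to 17.5 h (1.37%) or from 21 h to dawn (0%). At unadjusted p under 0.05 those 4 steps held 0, 2, 5 and 1 of the genes. DESeq2 called 0, 2, 0 and 0, limma-trend called 0 in each, and limma on the deposited CPM called 0, 1, 0 and 0. The share of all genes was not taken at unadjusted p or with other tools and settings. Whether these counts exceed that share is therefore not known. The step from dusk to 14 h, in which NADH-GOGAT2 had the lowest adjusted p (0.0671, -1.54 log2), was near the threshold. There edgeR called 1 gene without TMM scaling, with a replicate block, and with the pollen list mean in the fit. It also called 1 gene there without dawn replicate 2, dawn replicate 4, 3.5 h replicate 4 or dusk replicate 4. With the pollen list mean it also called 1 gene from 14 to 17.5 h.

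Ratios between isoforms within a library were compared at 2 pairs of times, dusk with dawn and 17.5 h with 7 h. The log2 ratio of summed NADH-GOGAT to FdGOGAT was -3.16 ± 0.31 at 7 h and -5.59 ± 0.31 at 17.5 h (SD, n = 4 each), a difference of -2.43 with no overlap. The log2 ratio of NADH-GOGAT1 to NADH-GOGAT2 went from -1.45 ± 0.97 at 7 h to 1.97 ± 0.42 at 17.5 h, a difference of 3.42 with no overlap. The log2 ratio of NIA1 to NIA2 was 4.00 ± 1.74 at dawn and -1.03 ± 1.23 at dusk, a difference of -5.03 with no overlap. NIA2 had no count in dawn replicate 2, so this size depends on the prior count: it was -5.99 with a prior of 0.5 and -4.27 without that library. The ratio of NADH-GOGAT to FdGOGAT was 1.22 higher at dusk than at dawn, also with no overlap. Each of these 4 reached an exact two-sided permutation p of 0.0286, the smallest that 4 libraries against 4 allow. The adjusted p of each over the 10 ratio tests was 0.0714, which misses the threshold. A pass would have needed more of the 10 tests at that smallest p. The miss therefore cannot show that these ratios were unchanged. The ratio of GS1;1 to GS1;2 differed by 0.04 between dusk and dawn (exact permutation p = 0.943) and by -0.46 between 17.5 and 7 h (exact p = 0.200). The ratio of GS1 to GS2 differed by 0.72 and -0.29 in the same contrasts (exact p = 0.343 and 0.257). GS1 here is the sum of GS1;1 and GS1;2 alone, and another GS1 gene that was measured is not in it. CPM ignores transcript length, so these ratios carry meaning as changes over time and not as levels.

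**Figure D5:**
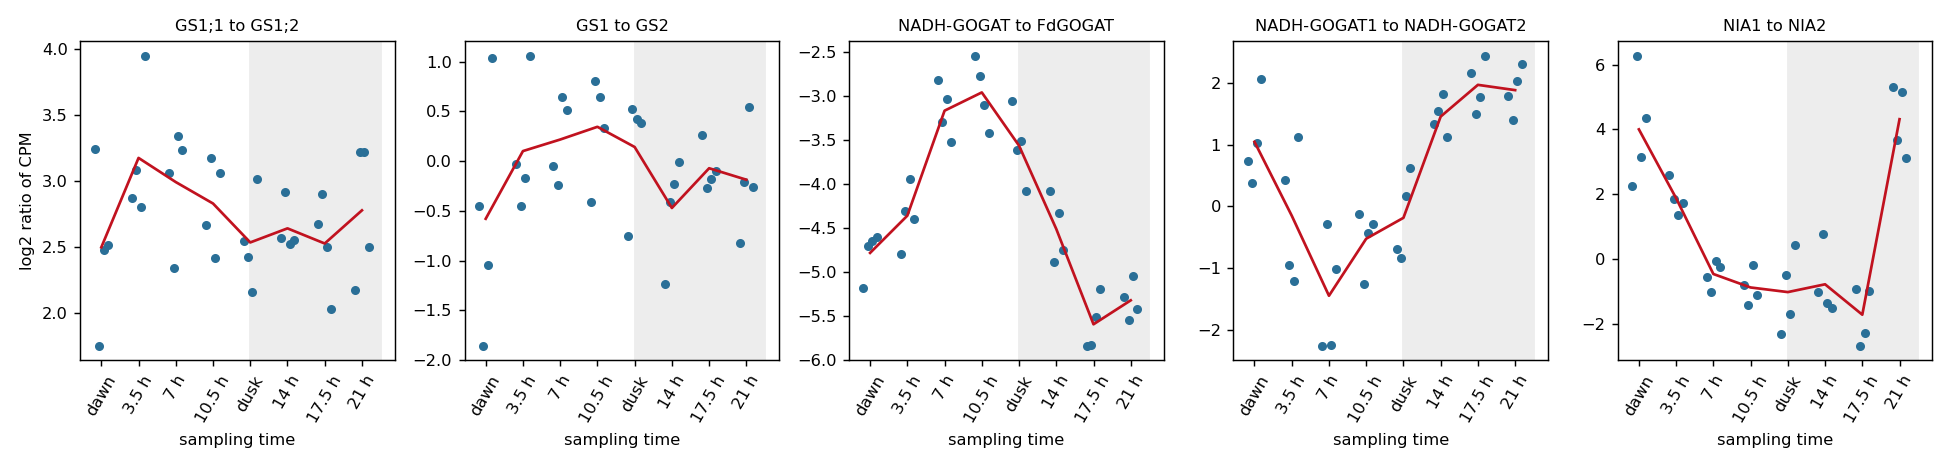
Log2 ratio of CPM within each library (y axis, own scale per panel) for 5 pairs of isoforms at the 8 times (x axis); points are libraries, lines join time means and grey marks dusk onward. The ratio of NADH-GOGAT1 to NADH-GOGAT2 is lowest at 7 h and highest at 17.5 h, and that of NADH-GOGAT to FdGOGAT highest at 10.5 h and lowest at 17.5 h.

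Pollen transcripts also differed between libraries of a time. The 4 pollen genes (MADS62, MADS63, MADS68 and EXPB13) summed to between 1.23 and 94.4 CPM per library, with medians from 3.95 CPM at 17.5 h and 7.38 CPM at dusk to 37.7 CPM at 14 h, and EXPB13 had a median of 0. Within times, NIR1 (r = -0.67, rho = -0.58), GS1;1 (r = -0.61, rho = -0.67) and NIA1 (r = -0.49, rho = -0.53) were lower where the list was higher, and GS2 (r = 0.64, rho = 0.63) was higher. In the permutation test, raw p for r was 0.00047, 0.00058, 0.0080 and 0.00089, and adjusted p over 18 relations was 0.0023, 0.0023, 0.021 and 0.0027. Without the 2 libraries farthest on the list axis, r was -0.59, -0.60, -0.50 and 0.60. The NIA1 relation includes times with few counts. Dusk replicate 1, with the highest pollen sum at dusk (71.2 CPM), had 1 NIA1 count. The pollen and green lists themselves correlated within times (r = 0.53, rho = 0.54), so the relations with GS2 and GS1;1 are not separate. With the pollen list mean in the fit, the 2 higher and 3 lower calls at dusk kept their number, and night against day gained GS2 as higher (0.49 log2, edgeR adjusted p = 0.0191) and GS1;1 as lower (-0.32 log2, adjusted p = 0.00368).

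Markers of the tapetum and endosperm were summed in the same way. The 6 tapetum genes, which mark the anther layer that feeds pollen, summed to 5.78 to 73.7 CPM per library. The 2 endosperm genes summed to 5.17 to 12.0 CPM. Their part in the results was not tested.

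Other genes of the pathway were taken from a list of 20, of which 17 were tested and 10 differed over the 8 times (edgeR), against 42.1% of all genes tested. The median log2 range of the tested rows was 1.22, against 0.93 for all genes. NLP3 (OS01G0236700), a NIN-like transcription factor of the family that responds to nitrate, had 88.0 ± 31.5 CPM at dawn and 37.9 ± 0.905 CPM at 10.5 h (SD, n = 4 each, edgeR adjusted p = 1.34e-07). NLP1 (OS03G0131100), of the same family, had 23.3 ± 6.51 CPM at dawn and 11.5 ± 2.05 CPM at 10.5 h (adjusted p = 0.000704). At dusk 2 of the 17 tested rows were higher (11.5% of all genes tested) and 4 lower (10.6%) than at dawn. At night 3 of the 17 were higher (12.3% of all genes) and 1 lower (14.0%) than by day. Both NLP genes had their highest means at dawn and were lower at dusk, NLP3 by -1.19 and NLP1 by -0.64 log2 (adjusted p = 2.76e-06 and 0.0148).

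The ammonium transporter AMT1;1 (OS04G0509600) was high from 21 h to 3.5 h. It had 65.2 ± 11.5 CPM at 21 h, 55.0 ± 16.1 CPM at dawn, 60.7 ± 14.1 CPM at 3.5 h and 17.9 ± 3.85 CPM at dusk (SD, n = 4 each, edgeR adjusted p over the times = 5.95e-07). An ammonium transporter row of the AMT1;2 and AMT1;3 pair (OS02G0620600) was highest at 21 h (16.6 ± 2.69 CPM) and lowest at 14 h (4.24 ± 1.26 CPM, adjusted p = 3.23e-05). The row OS01G0208700 was highest at 17.5 h (134 ± 25.2 CPM) and lowest at 7 h (49.0 ± 9.10 CPM, adjusted p = 8.81e-05). The row OS10G0554200 was 1.23 log2 higher at dusk (11.4 ± 3.30 CPM) than at dawn (4.85 ± 2.26 CPM, edgeR adjusted p = 0.00138).

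The rows most like NADH-GOGAT2 in mean log2 CPM over the 8 times were OS03G0850600 (r = 0.984) and OS04G0514400 (r = 0.98). Those most like NIA1 were OS12G0152750 (r = 0.993) and OS03G0273800 (r = 0.989). They were picked among 11610 rows with a range of at least 2-fold, all measured in the same 32 libraries, and no name is given to them here.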

How the data were processed

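Poly(A) RNA of 32 panicle samples was sequenced from strand-marking libraries, per the labels' protocols. The authors deposited counts (whole numbers by gene) and, in another table, CPM, which equals count over library total. The build IRGSP-1.0, of a japonica rice, was used for this indica variety with HTSeq 0.6.0 and TopHat2, per the submitters' processing notes. The strand setting of the counting is not given in the sources used here, so overlapping antisense reads may be included.

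Groups and replicate numbers came from the labels. Counts were tested with edgeR 4.0.16 (R 4.3.3; filterByExpr, 25766 genes left; TMM; quasi-likelihood test; Benjamini-Hochberg at 0.05) on all 32 libraries, with 1 mean per time or a 24 h cosine and sine pair with dusk set at 12 h. Log2 CPM used a prior count of 2. Isoform ratios were tested by exact permutation, and relations with marker lists with 100000 permutations within times. Alternatives were other scaling, no filter, limma 3.58.1 (on the deposited CPM, with a pseudocount of 0.5, and limma-trend), DESeq2 1.42.0, a replicate block, dusk at 13 h or left out, and leaving out each library. Added after seeing the data were a fit without the 3 least correlated libraries and one with the pollen list mean. The edgeR steps were tested on simulated data. No pair of libraries of the same time agreed within sampling noise (mean chi-square per gene at least 10.7).

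The members and lists were chosen with earlier results of these data known. The files pair no names with identifiers. Of the 9 names, 6 stood in the RefSeq table (assembly ASM3414082v1) on the identifier's chromosome and within 5 percentage points of its rank along it. A window of that width cannot tell neighbouring rows apart. The names NIA2, NIR1 and NADH-GOGAT1 were not in the RefSeq table. Of the pathway list 13 of 20 were found within that window, and the marker names MADS62, MADS63, MADS68, EXPB13, RCA, LHCB2, CYP704B2, GluA2 and RISBZ1 were not in the RefSeq table. Of the 3 Rubisco small subunit rows 1 matched the table in position and the other 2 did not, so 3 of the 7 green-tissue names were found. All 9 members are named; of the pathway list, the 5 rows with the lowest adjusted p over the times and any passing dusk against dawn by over 2-fold; and for the 2 members with the lowest adjusted p, the 2 most alike rows.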

Additional observations from a re-analysis of the deposited data

Results flagged for a closer look

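In 5 of 72 sets of 4 libraries (9 genes at 8 times) the highest or lowest library stood apart from the other 3 by more than Dixon's critical value; chance alone gives about 1 such set in 20. At 21 h, replicate 4 had 3.48 CPM of NIA1 and the other 3 libraries 9.04 to 9.61 CPM. At 7 h, replicate 2 was high for GS1;2, with 76.4 CPM against 51.2 to 54.7 CPM, and for NADH-GOGAT1, with 29.7 CPM against 14.0 to 16.2 CPM. For GS2, replicate 1 was high at dusk, with 514 CPM against 320 to 348 CPM, and at 14 h, with 886 CPM against 442 to 448 CPM. In both of those times replicate 1 also had the highest green-tissue sum (10420 and 14153 CPM) and the highest pollen sum (71.2 and 66.4 CPM).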

How the results depend on the processing

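The counts of genes that differed over the times (8), followed a 24 h wave (9) or were higher at dusk (2) or lower at night (4) stayed within 1.5 times under every alternative run. Leaving out single libraries gave 7 to 8, 8 to 9, 2 and 4 to 5 of these, 1 to 3 genes lower at dusk (main 3; 1 without dawn replicate 2), 1 higher at night and 4 to 9 of the 72 steps (main 6). DESeq2 called 12 steps, and with the pollen list mean 10 steps passed and 2 genes were higher at night. The share of all genes that passed was taken under the main settings alone. Of 112 same-numbered pairs of libraries, 55 correlated above 0.1 (range -0.758 to 0.723). The mean r was 0.038, 0.061 and -0.045 for replicates 1 to 3 and 0.222 for replicate 4. At every time replicate 4 lay below the time mean of the green-tissue list (centred log2 level from -1.173 at dawn to -0.105 at 14 h). Whether replicate numbers pair the samples was not tested against different-numbered pairs. The replicate block gave 2 and 3 calls at dusk and 1 and 4 at night, as without it. With the block, the NADH-GOGAT1 rise from 7 to 10.5 h had an adjusted p of 0.0511, and 1 gene gained a call from dusk to 14 h. The steps called stayed 6 in all. The GS1;1 to GS1;2 ratio at dusk against dawn, 0.04, ran from -0.21 to 0.28 without single libraries and turned negative without dawn replicate 2 (-0.21) or dusk replicate 4 (-0.12). Without TMM scaling the median of all genes moved by -0.20 to 0.13 log2 across contrasts, GS1;2 passed against the pollen list (r = -0.54, adjusted p = 0.017), and 3 relations that did not pass either way changed sign: NADH-GOGAT1 with the pollen list (-0.20), GS1;2 with the green list (-0.10) and NADH-GOGAT1 with the green list (-0.13). The causes were not tested. Low depth limits NIA1 and NIA2 most, with 23 and 16 counts in all 4 libraries at their lowest times.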
